A study of Mus musculus with 3 samples.

Results

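The nuclear genes of respiratory complex I were followed in open chromatin of kidney cells from mice with a point mutation in the mitochondrial glutamate tRNA gene, trnE. Members were all mouse genes of build mm10 whose symbols start with Ndufa, Ndufb, Ndufc, Ndufs, Ndufv or Ndufaf, which gave 54 of 49939 RefSeq genes on standard chromosomes. They comprised 37 subunit genes, of which 7 were core, 9 accessory in the matrix arm and 21 accessory in the membrane arm. The others were 8 assembly factors (Ndufaf1 to Ndufaf8), Ndufa4 and Ndufa4l2, which carry the name but are not complex I subunits, and 7 pseudogenes or gene copies. Of the 54 genes, 49 had enough counts to be tested in proximal tubule-like cells, and the 5 others were pseudogenes or copies. These 5 had no region with a peak in all 3 libraries, the regions summed here, and so were at 0 in every class sum. Ndufa12-ps and Ndufab1-ps did have peaks in some libraries.

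There were 3 single-cell libraries, 2 from 75-week-old kidneys (old replicate 1 at a mutation load of 75% and old replicate 2 at 80%) and 1 from a 3-week-old kidney at a load of 80% (young). All the mice carried the trnE mutation, and no sample without it was used here. Nothing in the labels states that the old samples are different animals, and p-values between ages therefore cover library-to-library spread that may be technical. Those between cell classes cover the spread left among all class sums once class and library are fitted, which may be technical too. The assay, mtscATAC-seq, fixes cells so that mitochondria stay inside and lets a transposase cut accessible DNA, and a value is the number of cuts in a peak in a cell.

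Complex I takes electrons from NADH and passes them to ubiquinone while it pumps protons across the inner mitochondrial membrane. The matrix arm holds the flavin and the iron-sulfur clusters, and the membrane arm pumps. The core subunits of the matrix arm are encoded in the nucleus and those of the membrane arm in mitochondrial DNA, and their translation in the mitochondrion needs mitochondrial tRNAs, that for glutamate included. Accessory subunits surround both arms, and assembly factors help to build the complex but leave it. Proximal tubule cells reabsorb most of the filtered solutes and are rich in mitochondria.

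After filtering, 5315, 3950 and 3976 cells were kept in old replicate 1, old replicate 2 and young, with a median of 16288.5, 13338.5 and 23319.5 counts per barcode before filtering. The make-up of the libraries differed widely. Old replicate 1 held 257 proximal tubule-like, 3273 macrophage or dendritic-like and 1230 T or NK-like cells. Old replicate 2 held 3504, 4 and 2 cells of these classes, and young held 3329, 118 and 75. Loop to collecting duct-like cells numbered 51, 327 and 201, and endothelium-like cells 190, 103 and 50. Most proximal tubule-like cells lay in different clusters in each library: clusters 9 and 15 in old replicate 1, clusters 1 and 8 in old replicate 2 and clusters 2, 5 and 6 in young. Clusters 9 and 15 held more cells of old replicate 2, at 373 and 171, than of old replicate 1, at 72 and 117. A cluster mostly of 1 library may be that library rather than a cell type. Proximal tubule markers were open in the proximal tubule-like sums, at 1440, 1740 and 1910 CPM over 20 genes, and the defining genes Slc5a2 and Kap were at 0 in old replicate 1. Macrophage markers summed to 274, 166 and 178 CPM over 14 genes in the same sums, and their part in the results below was not tested.

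Promoters of the members were read from RefSeq (build GRCm38.p6), as 300 bases with 250 before and 50 after the start. Of the 54 genes, 42 matched the table, and 41 of these were not pseudogenes or copies and had 43 promoters in all. These promoters were rich in CG: median GC content was 59.3%, against 56.3% for the 21262 promoters of protein-coding genes, and the median observed over expected CpG ratio was 0.829 against 0.567. The ratio was similar for promoters of nuclear genes of complexes II to V, at 0.833, and of mitochondrial ribosomal protein genes, at 0.82. A start of another protein-coding gene on the opposite strand lay within 1 kb for 15 of the 41 genes (36.6%), against 9.61% of 17491 protein-coding genes. The pairs included Ndufb1 with Cpsf2, Ndufb11 with Rbm10, Ndufaf8 with Tepsin, Ndufb5 with Mrpl47 and Ndufa7 with Rps28, and cuts between such starts cannot be given to 1 gene of the pair.

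Exact matches were sought on both strands for 7 motifs. AAGATGGCG, the letters of YY1, occurred in 6 of 43 member promoters (14.0%), against 1.83% of protein-coding promoters and 1.4% of all 32851 promoters in the table. The palindromic site of NRF1, a regulator of nuclear genes for mitochondria, occurred in 3 (6.98%), those of Ndufaf4, Ndufaf5 and Ndufa11, against 1.33% of protein-coding and 0.971% of all promoters. CCGGAAG, an ETS and GABP core, was found in 14.0% against 11.6% and 8.86%. GGGCGG, an SP core, was in 51.2% against 46.2% and 35.7%, CCAAT, an NF-Y core, in 32.6% against 38.2% and 37.4%, AAGGTCA, an ERR site, in 6.98% against 4.08% and 4.72%, and TATAAA in 11.6% against 12.6% and 13.6%. YY1 letters were in 5.13% of promoters of complexes II to V and 10.7% of those of mitochondrial ribosomal proteins. The NRF1 site was in 10.3% and 4.0% of these sets, and the ETS core in 33.3% and 34.7%. No motif of the list contains another, and a promoter with several matches was counted once. These shares describe letters, not binding.

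All 6 YY1 matches in members lay on the coding strand within 50 bases after the start. Of the 390 protein-coding promoters with these letters, 203 (52.1%) had them there. So did 6 of the 8 such promoters of mitochondrial ribosomal proteins and 1 of the 2 of complexes II to V. The 6 matches in members are shown with 6 bases on each side, with the motif in capitals, to let the shared position be seen. They began 22 bases after the start in Ndufc1 (chr3:51408919-51408939), 29 in Ndufa9 (chr6:126849101-126849121), 24 in Ndufs7 (chr10:80249467-80249487), 10 in Ndufaf8 (chr11:120098938-120098958), 33 in Ndufs6 (chr13:73328435-73328455) and 35 in Ndufs4 (chr13:114388045-114388065).
Ndufc1: cggaacAAGATGGCGccgtcc
Ndufa9: tgggagAAGATGGCGgccgcc
Ndufs7: gaggccAAGATGGCGgcgctg
Ndufaf8: gggcccAAGATGGCGgcgccc
Ndufs6: accggcAAGATGGCGgcggtg
Ndufs4: tacaggAAGATGGCGgcggtc

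Full promoters are shown for 4 genes: 3 with a start region less open in proximal tubule-like than in macrophage or dendritic-like cells, which spans the bases shown, and Ndufa11, which holds an NRF1 match. The common region nearest to the start of Ndufa11 has its middle 659 bp away, holds the start of Vmac and does not overlap the bases shown. Capitals mark NRF1, ETS, YY1, ERR, SP and NF-Y letters. Ndufs8 lies at chr19:3912725-3913024 on the minus strand, Ndufv2 at chr17:66101510-66101809 on the minus strand, Ndufaf8 at chr11:120098684-120098983 on the plus strand and Ndufa11 at chr17:56717512-56717811 on the plus strand.
Ndufs8: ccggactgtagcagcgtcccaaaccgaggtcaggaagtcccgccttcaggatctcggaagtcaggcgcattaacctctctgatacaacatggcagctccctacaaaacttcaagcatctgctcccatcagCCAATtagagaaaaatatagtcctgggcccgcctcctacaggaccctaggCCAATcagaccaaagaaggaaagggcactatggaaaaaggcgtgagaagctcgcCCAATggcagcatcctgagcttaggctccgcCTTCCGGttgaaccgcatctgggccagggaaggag
Ndufv2: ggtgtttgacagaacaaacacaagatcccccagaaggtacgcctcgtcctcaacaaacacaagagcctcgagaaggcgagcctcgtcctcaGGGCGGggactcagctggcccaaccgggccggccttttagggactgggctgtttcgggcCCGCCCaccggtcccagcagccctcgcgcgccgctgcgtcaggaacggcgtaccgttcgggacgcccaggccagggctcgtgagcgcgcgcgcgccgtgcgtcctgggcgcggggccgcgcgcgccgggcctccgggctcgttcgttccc
Ndufaf8: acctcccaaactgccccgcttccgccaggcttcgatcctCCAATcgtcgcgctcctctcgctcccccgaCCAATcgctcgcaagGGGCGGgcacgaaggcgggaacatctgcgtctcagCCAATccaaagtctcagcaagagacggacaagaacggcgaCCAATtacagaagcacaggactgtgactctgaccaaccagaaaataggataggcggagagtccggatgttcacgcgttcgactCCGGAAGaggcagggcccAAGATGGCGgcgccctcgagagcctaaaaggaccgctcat
Ndufa11: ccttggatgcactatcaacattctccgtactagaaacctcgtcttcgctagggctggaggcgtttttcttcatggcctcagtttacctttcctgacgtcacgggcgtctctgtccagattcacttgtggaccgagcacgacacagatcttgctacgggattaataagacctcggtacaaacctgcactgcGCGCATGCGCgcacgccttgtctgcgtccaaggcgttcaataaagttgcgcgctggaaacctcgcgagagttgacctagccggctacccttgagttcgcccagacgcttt
Ndufs8 held 3 CCAAT and an ETS match, Ndufv2 2 SP matches, and Ndufaf8 4 CCAAT with 1 SP, 1 ETS and 1 YY1 match. Ndufa11 held 1 NRF1 match, which began 60 bases before the start.

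In proximal tubule-like cells, start regions of the members ranged widely in openness, in nearly the same order in every library. Levels between genes are given as CPM per kb of region, where CPM scales counts by the class sum's total over common regions, those with a peak in all 3 libraries. In the 41 genes with a listed start and a common region within 1 kb of it, the region nearest to Ndufa11, a membrane arm subunit, which also holds the start of Vmac, had 92.7 and 84.4 CPM per kb in old replicates 1 and 2 and 95.7 in young. Ndufaf8, an assembly factor that works with Ndufaf5, had 97.0 and 83.1 in the old libraries and 97.4 in young. Ndufb5 had 89.0 and 80.2 against 90.9, which gave it rank 3 in old replicate 2. At the low end, Ndufa1, a small membrane subunit encoded on chromosome X, had 11.0 and 10.2 CPM per kb in the old libraries and 10.8 in young. Ndufaf1, an assembly factor of the membrane arm, had 8.5 and 15.5 against 15.0. The most and the least open starts thus differed far more than the libraries did. Spearman's rho across the 41 genes was 0.93 between the old libraries, 0.94 between old replicate 1 and young, and 0.98 between old replicate 2 and young. This is a correlation across genes, which share a genome and sequence composition and are not independent replicates.

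By role, core subunit starts had a median of 60.1 and 51.6 CPM per kb in the old libraries and 57.4 in young, over 5 genes. Accessory starts of the matrix arm had 50.4 and 43.9 against 45.8 (8 genes), accessory starts of the membrane arm 42.1 and 35.5 against 38.6 (20 genes), and assembly factors 41.7 and 41.4 against 41.8 (7 genes). The ranges within each role overlapped: core starts ran in young from 24.2 for Ndufs3 to 82.2 for Ndufs8.

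Between old and young, no complex I gene passed the test in proximal tubule-like cells. Of 49 tested genes, 0 rose and 0 fell by edgeR's quasi-likelihood test (adjusted by Benjamini-Hochberg over 25546 genes, of which 0.603% were called, 0.438% higher and 0.164% lower). At an unadjusted p under 0.05 the count was also 0, against 1206 of the 25546 genes, and DESeq2 gave 0. The median log2 difference of old over young was -0.04, against 0.0 for all genes, and the median standard error per member was 0.22. Young had 1 library, so its spread was taken to be that of the old libraries.

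Among the core subunits, Ndufs8, an iron-sulfur protein of the ubiquinone-binding module, had 120 and 93.6 CPM in old replicates 1 and 2 against 107 CPM in young (log2 difference -0.03, SE 0.19). Ndufv1, which binds NADH and the flavin, had 67.8 and 58.9 CPM against 69.0 (-0.14, SE 0.20). Ndufv2, another iron-sulfur protein next to it, had 89.3 and 77.0 CPM against 85.4 (-0.06, SE 0.19). In all 3 genes the young library lay within the range of the old ones or less than 2 CPM outside it. Ndufs1, the largest iron-sulfur subunit, had 61.9 and 54.9 CPM in the old libraries and 52.3 in young (0.14, SE 0.21). The only common region of Ndufs1, which has no listed start, also holds the start of Eef1b2. Ndufs7, next to the ubiquinone pocket, had 47.6 and 49.8 against 51.6 CPM (-0.09, SE 0.22) and Ndufs3 had 21.5 and 24.2 against 24.2 CPM (-0.08, SE 0.30). Of the 7 core genes, 2 lay above 0. The sums of Ndufs8 and Ndufv2 also include flank regions that hold the starts of Tcirg1 and Ankrd12.

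The largest differences among the members did not pass the test. Ndufa6, an accessory subunit of the LYR protein family, had 70.1 and 46.7 CPM in old replicates 1 and 2 against 46.3 CPM in young (0.30, SE 0.22, adjusted p = 1.0). That difference came from old replicate 1, since the log2 value was 0.02 without it and 0.57 without old replicate 2. Ndufaf1 had 8.63 and 15.7 CPM against 15.2 (-0.27, SE 0.40), and old replicate 1 was again the library apart. Ndufs5 was at 0.13 and Ndufa4l2 at 0.12, and Ndufv3, Ndufa7 and Ndufa10 were at -0.17, -0.17 and -0.16. Of the gene copies, Ndufb4b was at 0.76 (SE 0.72) and Ndufs6b at -0.61 (SE 0.48). Leaving the copies out, both old libraries lay above young for 7 of 47 genes and below it for 16. The groups thus did not overlap for 48.9% of the genes, against 58.3% of all genes tested.

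**Figure D1:**
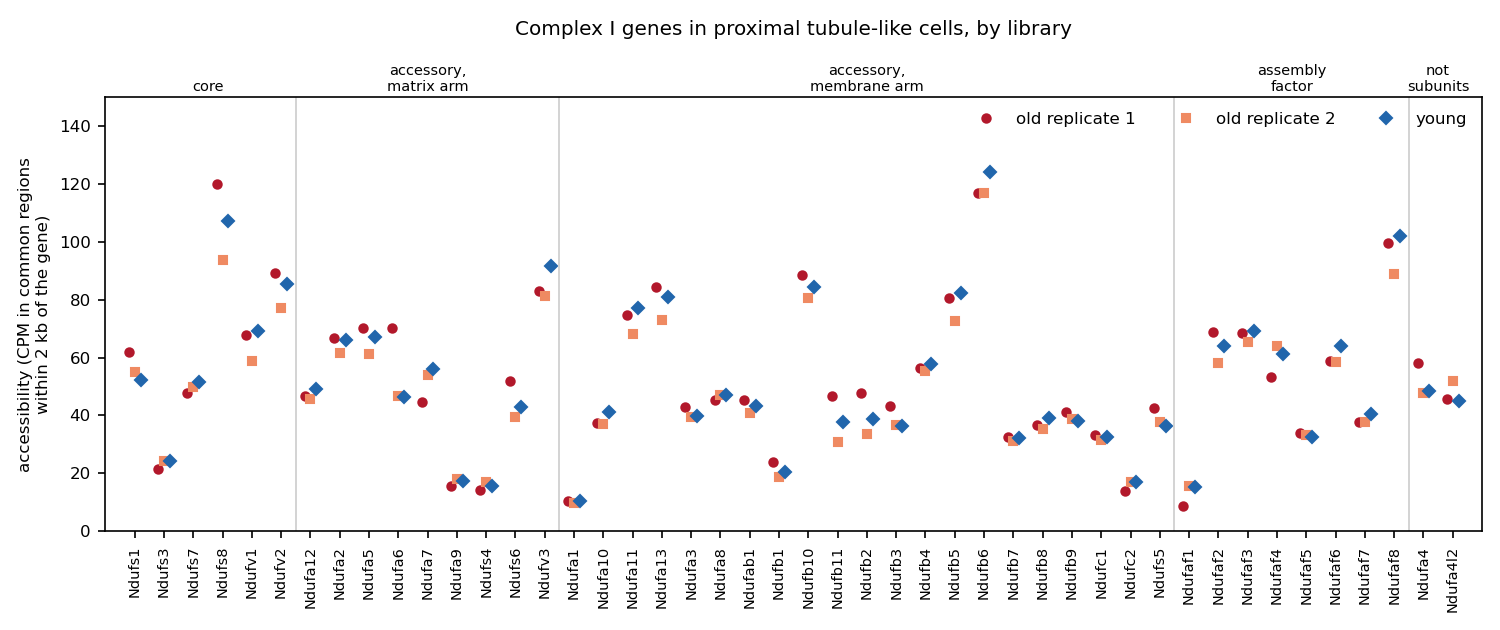
Accessibility in CPM (y axis) of 46 complex I genes (x axis, grouped by role) in proximal tubule-like cells, with 1 point per library (circles old replicate 1, squares old replicate 2, diamonds young). The 3 points of a gene mostly sit close together. Genes range from about Ndufa1, near 10 CPM, to Ndufb6, at 117 and 117 CPM in the old libraries and 124 CPM in young. In old replicate 1 Ndufs8 is higher, at 120 CPM, and Ndufaf1 is lower than Ndufa1, at 8.63 CPM. The Ndufb6 sum includes flank regions that hold the starts of Topors and Smim27. Its own start region had 42.3 and 39.3 CPM per kb in the old libraries and 37.5 in young.

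No member was called in the other classes that all libraries held. In loop to collecting duct-like cells, 0 of 48 tested genes were called (0.174% of 21875 genes were, 0.0869% higher and 0.0869% lower), with a median log2 difference of -0.09 for old over young. The single member at an unadjusted p under 0.05 was Ndufb4, a membrane arm subunit, at 41.6 and 60.0 CPM in the old libraries and 82.2 CPM in young (-0.65, SE 0.31, adjusted p = 1.0). Of the 21875 genes, 952 had such a p. In endothelium-like cells, 0 of 47 were called (0.364% of 18125 genes were, 0.171% higher and 0.193% lower), and 3 had an unadjusted p under 0.05, as 1760 of the 18125 genes did. Ndufb11 had 44.2 and 48.8 CPM in the old libraries against 89.2 CPM in young (-0.96, SE 0.38, adjusted p = 0.300). Ndufa10 had 49.1 and 48.8 against 89.2 CPM (-0.88, SE 0.38, adjusted p = 0.376), and Ndufa9 had 27.5 and 20.5 against 7.0 CPM (1.78, SE 0.83, adjusted p = 0.445). The old libraries lay on 1 side of young in all 4 genes, but young had 50 endothelium-like cells, and at Ndufa9 it held 4 counts. Endothelium markers summed to 2430 and 1700 CPM over 13 genes in endothelium-like cells of the old libraries, against 892 CPM in young. Podocyte markers summed to 868 and 747 CPM over 8 genes, against 430 CPM, and the part of either in these values was not tested. DESeq2 called 0 members in either class. The age difference was also compared between classes in 1 fit, a test added after the data had been seen: 0 of 49 members were called for loop to collecting duct-like minus proximal tubule-like cells (0 of 25526 genes, 0%) and 0 for endothelium-like minus proximal tubule-like cells (0.0118% of genes, 0.00392% higher and 0.00784% lower). At an unadjusted p under 0.05 these counts were 0 and 1, against 557 and 1815 of 25526 genes, and DESeq2 was not run on them. This fit had no term for library, so the class sums of 1 library were treated as if independent.

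In loop to collecting duct-like cells the other high and low values were Ndufs6b at 0.80, Ndufa4l2 at 0.49, Ndufa12 at 0.43, Ndufaf1 at 0.37 and Ndufaf2 at 0.29, and Ndufb7 at -0.45, Ndufs4 at -0.39, Ndufaf7 at -0.38 and Ndufa2 at -0.37. In endothelium-like cells they were Ndufs6 at 1.08, Ndufa4 at 0.51, Ndufaf8 at 0.46 and Ndufaf3 at 0.44, and Ndufb9 at -0.89, Ndufb3 at -0.75 and Ndufs5 at -0.59. Leaving copies out, the old libraries and young did not overlap in CPM for 66.0% of 47 genes in loop to collecting duct-like cells, against 65.4% of all genes, and for 63.8% in endothelium-like cells, against 72.9%. Core genes did not pass in these classes. In loop to collecting duct-like cells their log2 differences of old over young ran from -0.35 for Ndufv2 (SE 0.26) to 0.27 for Ndufs3 (SE 0.49). In endothelium-like cells they ran from -0.39 for Ndufs8 (SE 0.24) to 0.22 for Ndufs1 (SE 0.42).

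Immune cells could be set side by side in old replicate 1 and young alone, so no test was possible. Exact 95% counting intervals on fragments, the count over 2 rounded up, overlapped for 46 of 49 members in macrophage or dendritic-like cells, 47 of 48 in T or NK-like cells and 40 of 42 in B or plasma-like cells. Over all genes the intervals failed to overlap for 10.2%, 7.31% and 5.11%. Intervals cover counting error only. In macrophage or dendritic-like cells, Ndufa13, also known as the cell death regulator GRIM-19, had 154 fragments (149 to 160), scaled as CPM are, in old replicate 1 and 98.3 (76.3 to 125) in young. Ndufs8 had 210 (203 to 216) in old replicate 1 and 159 (131 to 192) in young, and Ndufb2 had 56.9 (53.6 to 60.3) and 36.1 (23.4 to 53.3). All 3 were higher in old replicate 1. In T or NK-like cells Ndufs3 had 25.1 (21.0 to 29.7) in old replicate 1 and 56.9 (30.3 to 97.4) in young, on 13 fragments. In B or plasma-like cells Ndufa4l2 was higher in old replicate 1 and Ndufa2 lower.

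Between cell classes, members were called less often than all genes. With the main scaling, more of the called members were lower than higher in proximal tubule-like cells relative to macrophage or dendritic-like and T or NK-like cells. Tests ran over all class sums of at least 20 cells with library as a block. Against macrophage or dendritic-like cells, 3 of 49 members rose and 7 fell in proximal tubule-like cells, which is 20.4% of them, while 50.6% of 25525 genes were called, 31.1% higher and 19.5% lower. Their median log2 difference was -0.11, against 0.15 for all genes. Since the scaling moves all genes together, the median of all genes is given beside that of the members. Start regions held a larger share of the members' counts than of all counts in common regions, so these medians differ in make-up. For start regions alone, tested as regions, the medians were -0.49 for members and -0.42 for any gene. The split of calls followed the scaling: 6 higher and 3 lower with RLE size factors (median of all genes 0.34), 1 and 18 with library totals alone (-0.05), and 8 and 4 with DESeq2. Nuclear genes of complexes II to V, at 2 higher and 9 lower of 46 with a median of -0.21, and mitochondrial ribosomal protein genes, at 6 and 18 of 78 with -0.25, lay on the same side of the all-gene median.

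Of the core genes, 0 rose and 2 fell. Ndufv2 had 89.3, 77.0 and 85.4 CPM in proximal tubule-like cells of old replicate 1, old replicate 2 and young, against 148 and 165 CPM in macrophage or dendritic-like cells of old replicate 1 and young (log2 difference -0.62, SE 0.15, adjusted p = 0.00178). Ndufs8 had 120, 93.6 and 107 CPM against 212 and 162 CPM (-0.53, SE 0.15, adjusted p = 0.00647). The groups did not overlap in either gene. Each sum includes a flank region at the start of another gene, Ankrd12 for Ndufv2 and Tcirg1 for Ndufs8. Their own start regions are given alone further below. Without old replicate 1, Ndufs8 was at -0.30 and was no longer called. Of the core genes that did not pass, Ndufs7 was at -0.51 (adjusted p = 0.0603), Ndufs1 at -0.39, Ndufs3 at -0.24 and Ndufv1 at -0.22.

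Accessory genes of the matrix arm went both ways, with 1 called higher and 1 lower of 9. Ndufa2, a subunit with a thioredoxin-like fold, had 66.9, 61.4 and 66.1 CPM in proximal tubule-like cells against 133 and 122 CPM in macrophage or dendritic-like cells (-0.77, SE 0.20, adjusted p = 0.00262). Its regions also lie within 2 kb of Tmco6 and Ik. Ndufa5 had 70.1, 61.2 and 67.1 CPM against 48.4 and 66.6 (0.47, SE 0.19, adjusted p = 0.0452), with overlapping groups, and lost its call without either old library. In the membrane arm, 0 of 21 rose and 2 fell. Ndufb1 had 24.0, 18.9 and 20.4 CPM against 51.7 and 45.6 CPM (-0.96, SE 0.30, adjusted p = 0.00991), and Ndufb11, encoded on chromosome X, had 46.7, 30.8 and 37.9 CPM against 65.0 and 83.8 (-0.65, SE 0.24, adjusted p = 0.0290). Both share their start region with another gene, Cpsf2 and Rbm10. Ndufb1 lost its call without old replicate 1 (-0.85), and Ndufb11 without old replicate 2 (-0.67) or young (-0.57). Ndufb8 at 0.70, Ndufa1 at 0.68, Ndufa4l2 at 0.60 and the copy Ndufs6b at 0.87 were among the 5 highest values and did not pass.

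Of the 8 assembly factors, 2 were called higher and 2 lower, a share of 50% close to the 50.6% of all genes. Ndufaf6, a factor with a phytoene synthase-like fold that acts early in assembly, had 58.7, 58.4 and 64.0 CPM in proximal tubule-like cells against 32.8 and 26.2 CPM in macrophage or dendritic-like cells, 2.20-fold higher (log2 difference 1.14, SE 0.25, adjusted p = 0.000469). Ndufaf4 had 53.3, 64.1 and 61.2 CPM against 41.8 and 50.9 (0.58, SE 0.24, adjusted p = 0.0468). Its partner in building the ubiquinone module, Ndufaf3, was lower instead, at 68.4, 65.3 and 69.3 CPM against 119 and 99.5 (-0.44, SE 0.17, adjusted p = 0.0319). Ndufaf8 had 99.4, 88.8 and 102 CPM against 169 and 167 CPM (-0.47, SE 0.18, adjusted p = 0.0307). The groups did not overlap in any of the 4. Ndufaf3 was at -0.04 (adjusted p = 0.883) with regions within 1 kb of the start alone, and its called region (chr9:108569373-108570282) lies 2391 bp away and holds the start of Dalrd3. Ndufaf3 and Ndufaf8 lost their calls without old replicate 1 (-0.33 and -0.45), and Ndufaf4 without any 1 library (0.46 to 0.58). Ndufa2, Ndufv2 and Ndufaf6 kept theirs under every alternative that held them. Ndufa2 and Ndufaf6 have no listed start, so the run with regions within 1 kb of the start alone did not cover them. Much of the Ndufaf6 difference lay in a region within the gene, described below.

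**Figure D2:**
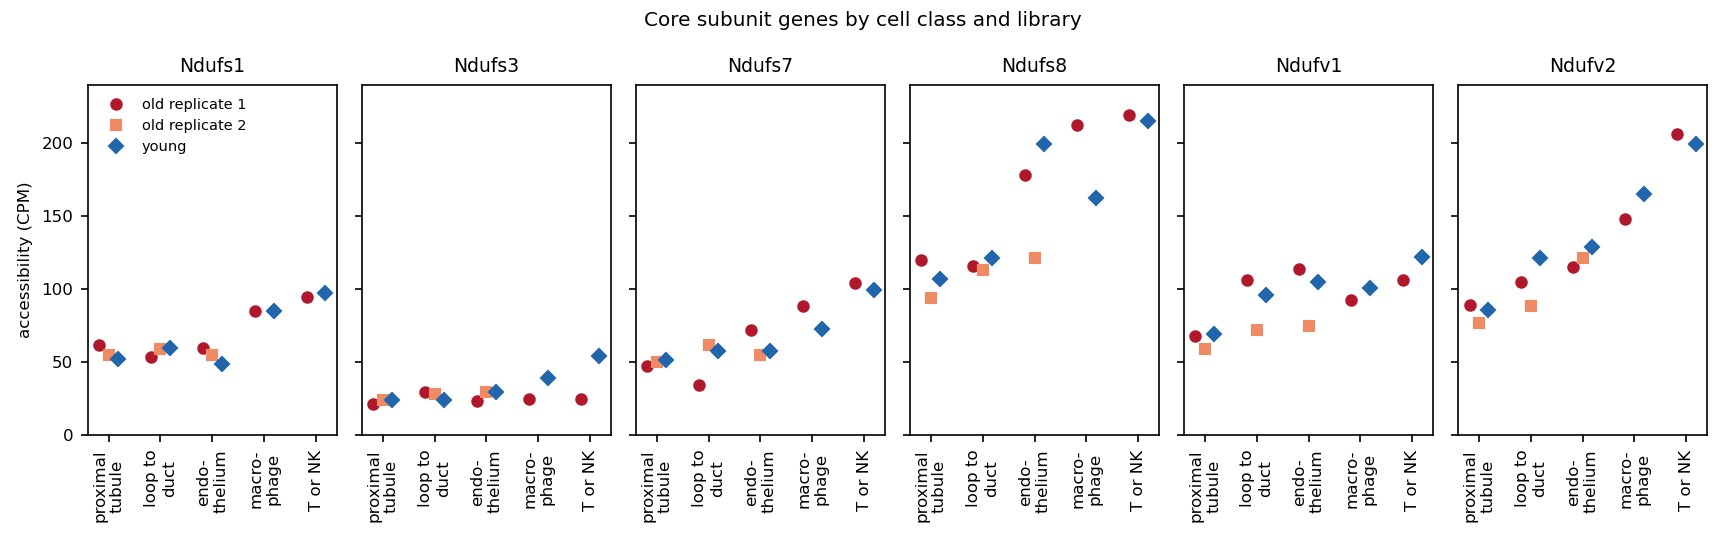
Accessibility in CPM (y axis) of 6 core subunit genes in 5 cell classes (x axis), with 1 point per library that held at least 20 cells of the class. Of the proximal tubule, loop to collecting duct, endothelium, macrophage and T or NK classes drawn, Ndufv2 and Ndufs8 are highest in the last. There Ndufv2 is at 206 and 199 CPM and Ndufs8 at 219 and 215 CPM in old replicate 1 and young. The sums of both genes include the start of another gene, Ankrd12 and Tcirg1.

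Against T or NK-like cells the members were lower still. In proximal tubule-like cells 13 of 49 fell and 1, the copy Ndufb4b, rose (28.6% of members called, against 55% of 25525 genes, 35% higher and 20% lower). The median log2 difference was -0.35, against 0.36 for all genes. The split was 5 higher and 5 lower with RLE size factors, 0 and 24 with library totals and 6 and 8 with DESeq2. Of the 7 core genes 4 fell, as did 3 of 9 in the matrix arm, 5 of 21 in the membrane arm and 1 of 8 assembly factors. Ndufv2 had 89.3, 77.0 and 85.4 CPM in proximal tubule-like cells against 206 and 199 CPM in T or NK-like cells of old replicate 1 and young (-0.95, SE 0.16, adjusted p = 2.7e-05). Ndufs7 had 47.6, 49.8 and 51.6 against 104 and 99.7 CPM (-0.76, SE 0.24, adjusted p = 0.00855), Ndufs8 was at -0.65 (adjusted p = 0.00157) and Ndufs1 at -0.50 (adjusted p = 0.0377). Ndufv1 and Ndufs3 did not pass, at -0.38 and -0.35. The sums of Ndufv2 and Ndufs8 include the starts of Ankrd12 and Tcirg1. All counts of Ndufs1 come from a region that also holds the start of Eef1b2, so its call cannot be given to Ndufs1 alone.

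The lower accessory genes were Ndufa2 at -0.89, Ndufb1 at -0.85, Ndufa3 at -0.79, Ndufb11 at -0.66, Ndufa10 at -0.60, Ndufv3 at -0.57, Ndufa6 at -0.56 and Ndufb5 at -0.55. The assembly factor was Ndufaf7, a methyltransferase, at -0.63. Of the 14 calls, 2 remained without old replicate 1, those of Ndufv2 and Ndufa3, where the T or NK-like group was then 75 cells of young. T or NK markers summed to 1270 CPM over 15 genes in T or NK-like cells of old replicate 1 and to 460 CPM in young, where 7 were at 0, Cd3g and Cd8a among them, against 432 CPM in B or plasma-like cells of young. Their part in the differences was not tested. Ndufb11 also lost its call without old replicate 2. With old replicate 1 left out 3 members were called in all, and without young 22 were. Ndufb4b rested on few counts, at 5.47, 3.68 and 2.61 CPM against 0.774 and 0 CPM, and lost its call without any 1 library. Ndufb8 at 0.71, Ndufs6b at 0.64, Ndufaf4 at 0.53, Ndufa4 at 0.46 and Ndufaf6 at 0.46 were the next highest and did not pass.

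**Figure D3:**
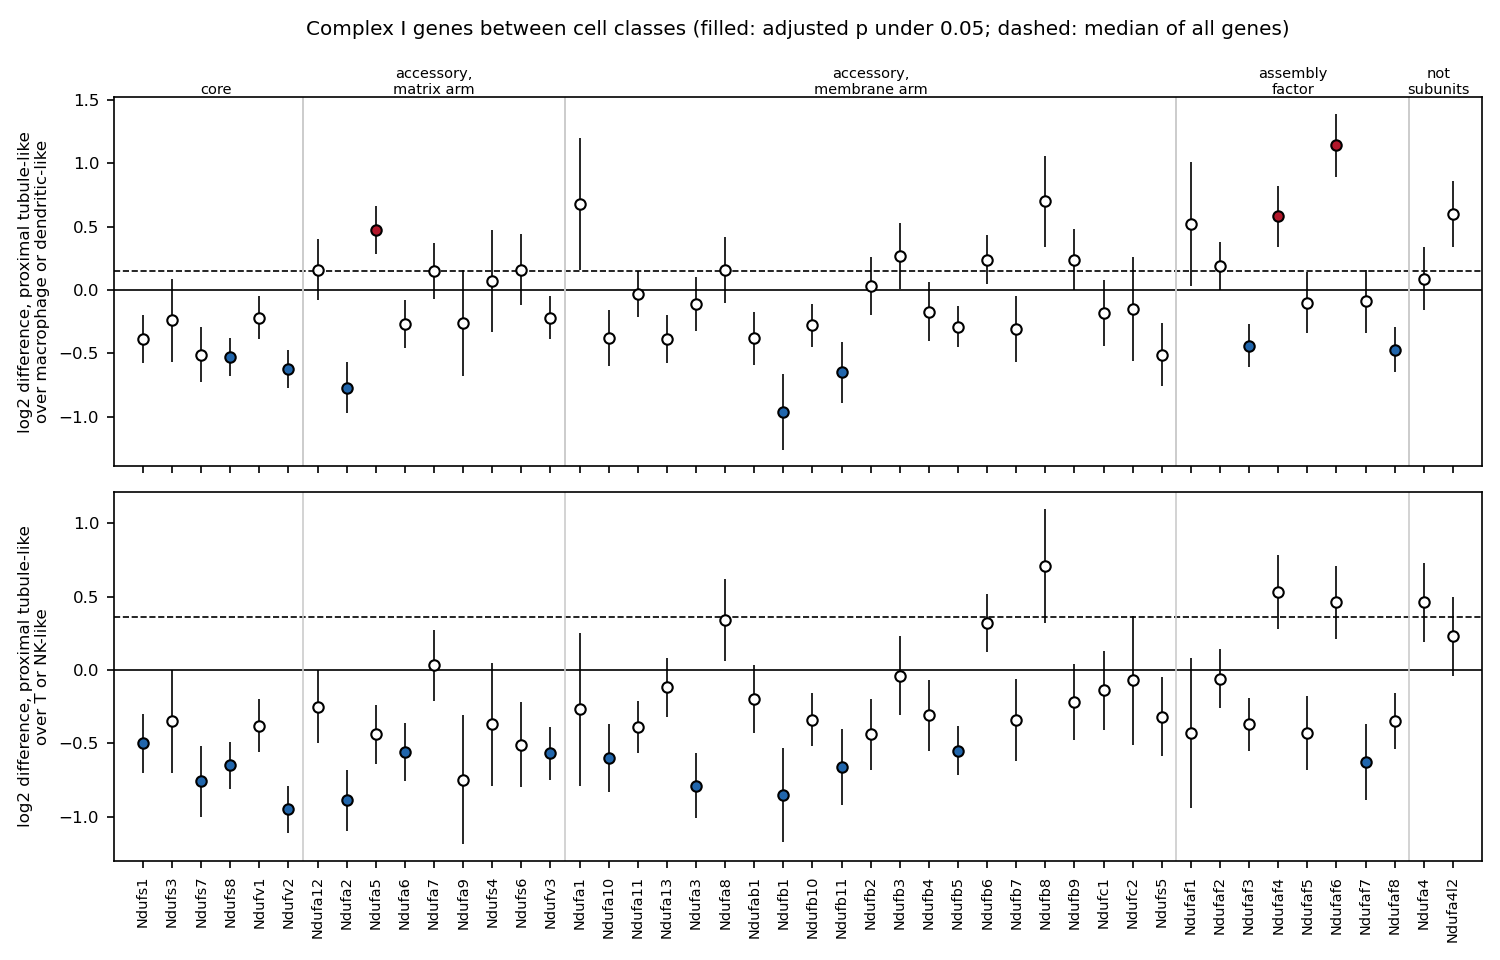
Log2 differences (y axis) of proximal tubule-like over macrophage or dendritic-like cells (top) and over T or NK-like cells (bottom) for 46 complex I genes grouped by role (x axis), with bars of 1 standard error, filled where called and a dashed line at the median of all genes, 0.15 and 0.36. Ndufaf6 stands highest in the top panel at 1.14, and most members sit below the dashed line in the bottom panel.

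Against endothelium-like cells, 4 of 49 rose and 6 fell (20.4%, against 37.6% of genes, 23.4% higher and 14.2% lower), with a median log2 difference of -0.04 and of 0.12 for all genes. The split was 2 higher and 12 lower with library totals, 5 and 4 with RLE size factors and 9 and 5 with DESeq2. Ndufb8, a membrane arm subunit, had 36.6, 35.3 and 39.2 CPM in proximal tubule-like cells against 8.85, 28.2 and 24.5 CPM in endothelium-like cells (1.21, SE 0.36, adjusted p = 0.00950), and lost its call without old replicate 1 (0.71). The call was also lost with regions within 1 kb of the start alone. Ndufaf6 had 58.7, 58.4 and 64.0 CPM against 29.0, 37.2 and 29.7 (1.10, SE 0.23, adjusted p = 0.000625). Ndufa12 and Ndufs6, accessory genes of the matrix arm, were both at 0.70 (adjusted p = 0.0217 and 0.0493). All 4 genes had every proximal tubule-like value above every endothelium-like one, except Ndufs6, where old replicate 1 endothelium-like cells had 43.2 CPM against 39.4 and 42.8 CPM in proximal tubule-like cells of old replicate 2 and young.

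The lowest was Ndufa7, with 44.8, 54.0 and 55.9 CPM in proximal tubule-like cells against 134, 109 and 94.5 CPM in endothelium-like cells (-0.98, SE 0.20, adjusted p = 0.000363). Ndufa2 at -0.50, Ndufb5 at -0.46, Ndufb10 at -0.45, Ndufs8 at -0.43 and Ndufv1 at -0.39 also fell. Of these, Ndufs8 lost its call without old replicate 1 or without young, and Ndufb10 without either old library. Ndufa2 and Ndufv1 did so without old replicate 1 or 2, Ndufv1 also without young, and Ndufb5, Ndufa12 and Ndufs6 without old replicate 2, Ndufs6 also without young. Without old replicate 2, 4 members were called. Core genes that did not pass were Ndufv2 at -0.34, Ndufs7 at -0.15, Ndufs3 at -0.06 and Ndufs1 at 0.20, and the copy Ndufb4b at 2.93 did not pass either.

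Against the rest of the tubule the members differed little. In proximal tubule-like over loop to collecting duct-like cells, 2 of 49 rose and 1 fell (6.1%, against 17.8% of genes, 11.7% higher and 6.08% lower), and the split was 1 higher and 2 lower with library totals and 2 and 3 with DESeq2. Ndufb8 had 36.6, 35.3 and 39.2 CPM against 16.6, 23.6 and 20.8 CPM (1.00, SE 0.33, adjusted p = 0.0363), Ndufaf6 had 58.7, 58.4 and 64.0 against 32.1, 40 and 39.1 CPM (0.80, SE 0.22, adjusted p = 0.00955), and Ndufaf3 had 68.4, 65.3 and 69.3 against 134, 100 and 96.1 CPM (-0.55, SE 0.15, adjusted p = 0.0108). The groups did not overlap in any of the 3. Without old replicate 2, 0 members were called, and Ndufaf3 also lost its call without old replicate 1 and Ndufb8 without young. Both Ndufaf3 and Ndufb8 lost theirs with regions within 1 kb of the start alone. Core genes ran from -0.35 for Ndufv1 (adjusted p = 0.119) to 0.07 for Ndufs1. Ndufb4b at 1.75, Ndufs6 at 0.38 and Ndufb2 at 0.31, and at the low end Ndufaf1 at -0.52, Ndufa10 and Ndufs4 at -0.44 and Ndufc2 at -0.40, did not pass.

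Genes outside the prefixes that share the pathway were also counted. Of 14 other assembly factors, such as Acad9 and Ecsit, 0 rose and 2 fell against macrophage or dendritic-like cells, where 50.6% of all genes were called. Of 10 nuclear regulators of mitochondrial genes, among them Nrf1, Gabpa and Ppargc1a, 4 rose and 2 fell in the same comparison (60%, against the same 50.6%), with a median of -0.22. Between old and young in proximal tubule-like cells, neither list had a call, and complexes II to V and mitochondrial ribosomal proteins had 0 calls of 46 and of 78, where 0.603% of all genes were called.

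The regions behind these sums separated starts from gene bodies, a division made after the data had been seen. The members had 178 merged regions within 2 kb, of which 89 were common, 43 of them at a listed start and 17 in the gene body of a gene with one. Another 12 lay in the gene body where no start was listed. Of the 89, 45 lay within 2 kb of another protein-coding gene. In proximal tubule-like cells, 0 of 89 regions were called between old and young by edgeR's quasi-likelihood test or by DESeq2, 0 had an unadjusted p under 0.05, and 0.546% of 72315 regions were called, 0.509% higher and 0.0373% lower. Of the 72315 regions, 3959 had an unadjusted p under 0.05. At starts of any gene 0.35% were called (0.243% higher and 0.107% lower), and away from starts 0.593% (0.573% and 0.0206%). Start regions held 72.1%, 70.0% and 70.2% of the members' counts in proximal tubule-like cells of old replicate 1, old replicate 2 and young, against 75.6% and 76.4% in macrophage or dendritic-like cells of old replicate 1 and young. Over all genes, start regions held 42.7%, 38.3% and 40.4% of the counts in common regions, against 56.6% and 54.6%.

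Against macrophage or dendritic-like cells, 9 of the 89 regions were higher and 11 lower in proximal tubule-like cells, where 45.2% of 72185 regions were called, 32.2% higher and 13% lower. At starts, 0 of 43 were higher and 8 lower with a median of -0.49, while 19.3% and 26.5% of 13982 start regions of any gene were called higher and lower with a median of -0.42. In the gene bodies of genes with a listed start, 6 of 17 were higher and 0 lower with a median of 0.41, while 35.2% and 9.78% of 58203 regions away from starts were called higher and lower with a median of 1.01. In all, 45.8% of starts of any gene and 45% of regions away from starts were called. The difference between members and other regions was not tested. With RLE size factors 14 member regions were higher and 1 lower, and with DESeq2 21 and 4, so the lower starts depend on the scaling. Without old replicate 2, 8 were higher and 1 lower. Common regions needed a peak in old replicate 2, which had few immune cells, and this choice leaves out regions open in immune cells alone. Another 39 member regions had a peak in old replicate 1 alone and were not among the 89. In that library, mostly immune cells, 30 of them had more CPM in macrophage or dendritic-like cells and 9 in proximal tubule-like cells. The counts of higher and lower regions therefore depend on which regions entered.

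The 8 lower starts were those of Ndufb1, Ndufv2, Ndufb11, Ndufs8, Ndufab1, Ndufv3, Ndufaf8 and Ndufs7. The start region of Ndufv2 (chr17:66101209-66102161) had 57.3, 47.1 and 54.7 CPM in proximal tubule-like cells against 102 and 117 CPM in macrophage or dendritic-like cells (-1.10, SE 0.32, adjusted p = 0.00198), and it alone of the 8 kept its call under every alternative run, while the other 7 stayed below 0 and lost theirs under some. That of Ndufs8 (chr19:3912305-3913340) had 94.9, 72.6 and 85.1 CPM against 177 and 139 CPM (-0.92, SE 0.30, adjusted p = 0.00602). That of Ndufb1 (chr12:101975480-101976516), which holds the start of Cpsf2 too, had 23.6, 18 and 19.2 CPM against 50.3 and 45.6 (-1.31, SE 0.42, adjusted p = 0.00499). In these 3 regions the classes did not overlap. The remaining 5 ran from -0.97 for Ndufb11 to -0.81 for Ndufs7.

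Of the 9 higher regions, 7 had less than 1 CPM in macrophage or dendritic-like cells of old replicate 1. In Ndufaf6 a region within the gene (chr4:11067612-11068551) had 26.9, 25.6 and 28.0 CPM in proximal tubule-like cells, on 128, 1153 and 2221 counts, against 0.129 and 0 CPM in macrophage or dendritic-like cells, on 5 and 0 counts. The log2 difference was 6.95 (SE 1.05), and since young held 0 counts in 118 macrophage or dendritic-like cells, its size depends on the small count that the fit adds. In loop to collecting duct-like cells the same region had 0, 3.28 and 3.96 CPM, in endothelium-like cells 0, 2.57 and 5.25 CPM, and in T or NK-like cells of old replicate 1 and young 0. Every proximal tubule-like value was thus above every value of these other 4 classes.

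In Ndufb8 a region 1972 bp from the start (chr19:44552998-44553943) had 12.2, 12.3 and 16.3 CPM in proximal tubule-like cells against 0.181 and 1.5 CPM in macrophage or dendritic-like cells (5.04, SE 1.09, adjusted p = 2.5e-05). It had 2.38, 0.984 and 4.95 CPM in loop to collecting duct-like cells and 0 in endothelium-like cells of all 3 libraries. In Ndufv3, which encodes a small accessory subunit, 2 regions were higher. The one 11826 bp from the start (chr17:31530885-31532997) had 10.3, 12.1 and 13.5 CPM against 0.620 and 0 CPM (4.29, SE 1.07). The other, 9430 bp away (chr17:31529088-31530002), had 5.89, 10.0 and 11.7 CPM against 0.905 and 0 (3.62, SE 0.96), and reached 9.51, 19.4 and 6.93 CPM in loop to collecting duct-like cells, so it was not highest in proximal tubule-like cells. The gene's start region was among the lower ones, and its sum over regions did not pass, at -0.22.

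In Ndufa7 a region 4441 bp from the start (chr17:33828590-33829582) had 10.5, 17.0 and 19.7 CPM in proximal tubule-like cells against 0.233 and 0 CPM in macrophage or dendritic-like cells (5.72, SE 0.86). It was most open in endothelium-like cells, at 62.9, 51.4 and 49.0 CPM, the comparison in which the gene was the lowest member. With regions within 1 kb of the start alone, Ndufa7 was at -0.45 against endothelium-like cells and was no longer called. The others included a region of Ndufs6 (chr13:73319897-73320848) at 5.47, 3.64 and 4.99 CPM against 0.207 and 0 (4.51), one of Ndufb4 (chr16:37651176-37652083) at 2.37 and one of Ndufa4l2 (chr10:127508842-127509666), which is also near Stac3, at 1.61. Those of Ndufs6 and Ndufa4l2 lost their calls without old replicate 1, and that of Ndufb4 without old replicate 2.

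**Figure D4:**
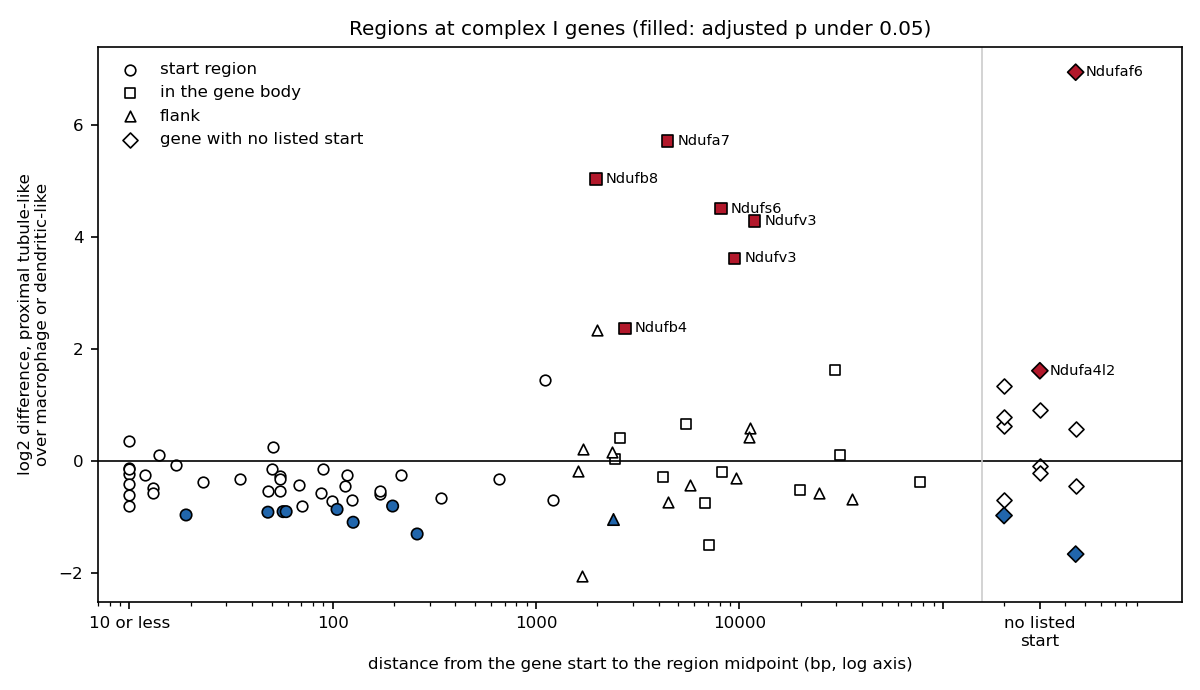
Log2 difference of proximal tubule-like over macrophage or dendritic-like cells (y axis) for common regions at complex I genes by distance from the gene's start (x axis, log scale), with genes without a listed start at the right and called regions filled. Called regions above 0 are named and lie beyond 1 kb from a start or in genes with none listed, and the 8 called start regions lie below 0.

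**Figure D5:**
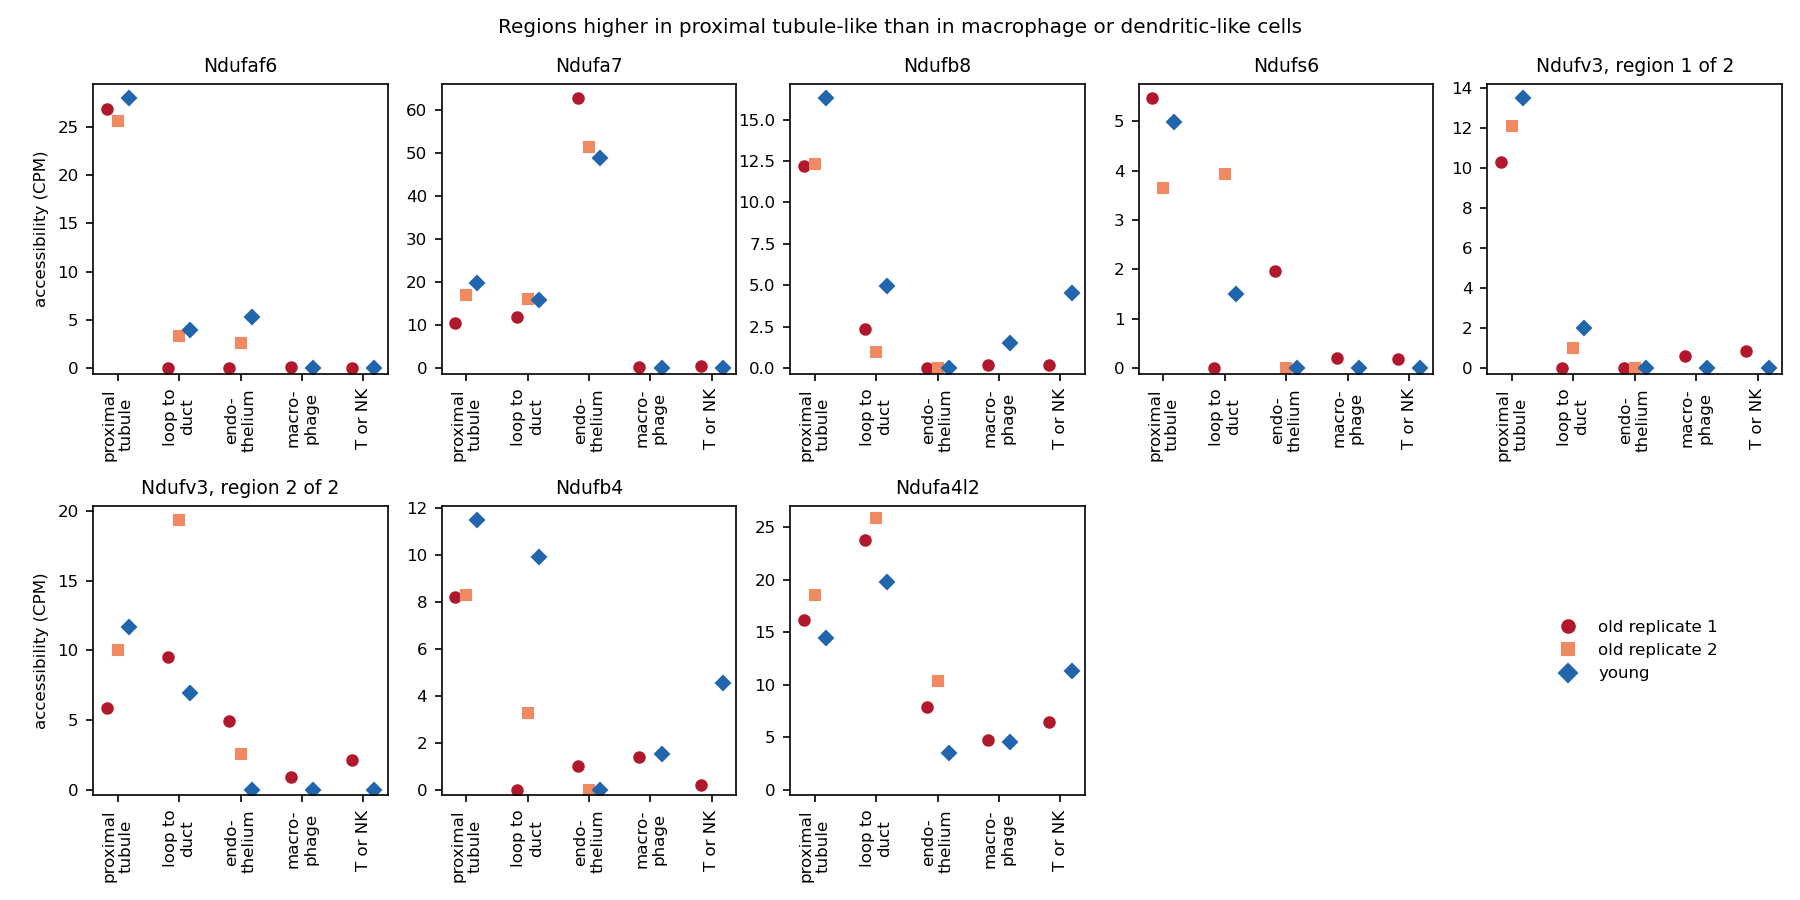
Accessibility in CPM (y axis, scaled for each panel) of 8 of the regions called higher in proximal tubule-like than in macrophage or dendritic-like cells, by cell class (x axis) and library (symbols). The Ndufaf6 region is at or below 5.25 CPM in the other classes, and the Ndufa7 region is highest in endothelium-like cells, at 49.0 to 62.9 CPM.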

How the data were processed

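Nuclear chromatin accessibility was measured in single kidney cells of 3 libraries. Per the submitters' processing notes, the authors used Cell Ranger ATAC 2.1.0 and build mm10. Each deposited table gives counts, not normalized, of transposase cuts for every peak and cell barcode, with peaks listed for each library alone. Most deposited counts were even (94.3%, 90.9% and 89.5% in old replicate 1, old replicate 2 and young), since both fragment ends are counted.

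Peaks overlapping by at least 1 bp were merged (bedtools 2.31.1) into 250005 regions, of which 72317 had a peak in every library. These common regions held 67.4%, 82.1% and 82.7% of the counts of the 3 libraries. Barcodes with at least 1000 counts were kept and 248, 133 and 135 doublets removed (0.8% per 1000 barcodes, highest scores against simulated doublets). Libraries shared 28 to 39 barcodes. Cells were clustered without the 89 common regions at members (latent semantic indexing, 30 components, 20 neighbours, Leiden resolution 1.0, igraph 0.11.9, leidenalg 0.10.2), giving 20 clusters. Clusters were named from 20 marker sets over all merged regions. After the clusters had been seen, naming was moved to all merged regions, and Aqp1, listed for the thin limb but also open in proximal tubule, was no longer counted against that class.

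Counts over common regions overlapping the gene body and 2 kb were summed per library and class (at least 20 cells). edgeR 4.0.16 quasi-likelihood tests with TMM scaling ran over all genes or regions with a mean count of at least 10, called at a Benjamini-Hochberg adjusted p of 0.05. CPM were scaled by totals over common regions, without TMM. Alternatives were RLE size factors, library totals, DESeq2 1.42.0, no low-count filter, all merged regions, regions within 1 kb of a start, fragments, other cell filters and clusterings and each library left out, and, added after seeing the data, the clusters shared by all libraries. The tests were tried on simulated data.

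Genes named in each comparison are the 7 core subunits, called members (up to 25) and the 5 highest and lowest log2 differences. Members and lists were chosen with earlier results of these data known. Gene names, windows and promoters come from RefSeq (GRCm38.p6). Values of 1 member that counts over the list include are not reported here. Mitochondrial reads and mutation load were not analysed here.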

Additional observations from a re-analysis of the deposited data

How the results depend on the processing

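No paired analysis was possible because old and young share no replicate numbers in the labels that mark a pair, and the age comparisons have 1 young library. The age counts stayed at 0 members and 0 regions under every alternative that gave a count. Leaving out an old library left no residual spread, so those values have no test. Counts of called members moved by more than 1.5 times as follows; the cause was not tested. For proximal tubule-like over macrophage or dendritic-like cells, from 10, they were 19 with library totals, 18 with fragments, 4 with all merged regions, 6 with starts alone and 6 at Leiden resolution 0.5. Over T or NK-like cells, from 14, they were 24 with library totals, 24 with fragments, 7 with starts alone and 8 with shared clusters. Over endothelium-like cells, from 10, they were 5 with all merged regions, 5 with starts alone and 4 with shared clusters. Over loop to collecting duct-like cells, from 3, they were 5 with DESeq2, 0 with starts alone and 1 at Leiden resolution 0.5. Leaving out 1 library gave 4 to 14, 3 to 22, 4 to 10 and 0 to 2 in these 4 comparisons, and 9 to 18 of 89 regions, where leaving out young was not run. With starts alone 2 called genes turned round and lost their calls: Ndufb1 over T or NK-like cells (0.05, adjusted p = 0.917) and Ndufb10 over endothelium-like cells (0.08, adjusted p = 0.873). Calls kept under every alternative that held the gene or region numbered 3 of 10, 2 of 14, 1 of 10 and 0 of 3, and 7 of 20 for regions. The run with starts alone did not hold Ndufa2 or Ndufaf6. Depth limits the small classes, since the median member had 30 counts in T or NK-like and 33 in endothelium-like cells of young, against 3740 in its proximal tubule-like cells.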
